A study of Danio rerio with 12 samples.

Results

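The genes described here encode the hormones, sensors and channels that keep calcium in balance, and were followed in whole zebrafish embryos carrying a truncating mutation in the tumor suppressor apc. The members were given as 9 names: pth1a, pth1b, pth2, pthlha, pthlhb, gcm2, casr, stc1 and trpv6. The names were matched to the gene names of the count table without regard to case, and 10 of its 25902 genes carried one of them, because 2 Ensembl genes are named stc1. The list was drawn up with the difference between mutant and WT embryos given vehicle already known, so no p-value is given for that difference, and where it is said which members met the threshold there, this is a description that supports nothing.

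Parathyroid hormone is a small secreted peptide that in mammals raises blood calcium by acting through its receptor on bone and kidney, and its release is held down by the calcium-sensing receptor. Fish have no discrete parathyroid gland and take up calcium from the water through ionocytes of the skin and gills, where the channel trpv6 lets calcium into the cell. Stanniocalcin, a hormone of the corpuscles of Stannius that lie on the fish kidney, holds this uptake down.

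RNA-seq was performed on 4 groups of 3 replicates, each replicate being a pool of 20 whole embryos harvested at 48 hpf. The mutant vehicle group was apc-mcr homozygotes in 0.1% DMSO and the WT vehicle group was their siblings in the same vehicle. The mutant rapamycin group was apc-mcr homozygotes given 100 nM rapamycin, an inhibitor of mTORC1, beginning at 24 hpf, and the WT rapamycin group was siblings given the same dose. Homozygotes were recognised by body shape at 24 hpf, so the WT groups mix wild-type embryos with heterozygous carriers of the apc-mcr allele. In a whole embryo, a lower count can mean fewer cells of the kind that makes a transcript or less transcript in each cell, and these cannot be told apart.

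Total counts were 69693340 to 82364863 in 11 libraries and 51692772 in WT rapamycin replicate 2, where a single transcript (zgc:158463) took 12.9% of the counts. Levels are given as normalized counts, which are the deposited counts after TMM scaling of all 12 libraries to a common size. Called genes are those with an adjusted p under 0.05 that also differed at least 2-fold where mutant and WT were compared, and an error after a log2 fold change is its standard error. The apc transcript itself had 7163, 7576 and 5420 normalized counts in mutant vehicle embryos, against 9376, 9437 and 9455 in WT vehicle embryos. With rapamycin it had 7045, 5717 and 5690 in mutant embryos, against 9806, 10155 and 4732 in the libraries labelled WT. The library labelled WT rapamycin replicate 3 therefore had less apc than any mutant library, unlike the other 5 WT libraries. That library was also examined on 79 genes outside the list that were at least 8-fold higher in mutant vehicle embryos. The median gene in it stood at 10.9% of the mutant vehicle mean, against 6.32% and 5.75% in WT rapamycin replicates 1 and 2. The genes were chosen on the vehicle libraries, so the choice itself held the WT vehicle values low. Those values were 6.71%, 10.6% and 6.33% in replicates 1 to 3, and cannot be ranked with the WT rapamycin values. Some of the results that rest on WT vehicle replicate 2 or on the library labelled WT rapamycin replicate 3 are given with and without that library.

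The plainest difference lay in the parathyroid hormone genes. Transcripts of pth1a and pth1b were scarce in WT embryos and far higher in mutants, both with and without rapamycin. The zebrafish genes pth1a and pth1b are paralogs that each encode a parathyroid hormone. In vehicle, pth1a (ENSDARG00000093738) had 353, 297 and 428 normalized counts in mutant embryos, against 4.59, 17.0 and 9.12 in WT embryos. The lowest mutant library was far above the highest WT library, which was replicate 2. The raw counts behind these values were 334, 324 and 442 in mutant embryos, against 5, 18 and 10 in WT embryos, so the size of the fold rests on few WT reads. The log2 fold change was 5.12 ± 0.35 (SE, n = 3 each), or 34.9-fold. Without WT vehicle replicate 2 it was 5.69 ± 0.34.

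The paralog pth1b (ENSDARG00000091961) had 131, 99.9 and 168 normalized counts in mutant vehicle embryos, against 10.1, 12.3 and 7.30 in WT vehicle embryos. These groups were again fully apart, with the 3 WT libraries close to each other. The log2 fold change was 3.73 ± 0.32 (SE, n = 3 each), or 13.3-fold, and 3.92 ± 0.38 without WT vehicle replicate 2. Mutant replicate 3 was the highest mutant library and mutant replicate 2 the lowest for both genes.

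The rapamycin libraries were other embryos, sequenced as libraries of their own, but their tests are not fully independent of the vehicle libraries. They came from 1 model of 12 libraries, so the vehicle libraries also entered the estimate of the spread. Libraries of the same replicate number were also alike across groups, and the members were chosen with earlier results of these data known. In the rapamycin libraries pth1a had 298, 328 and 495 normalized counts in mutant embryos, against 10.9, 7.87 and 53.4 in WT embryos. Again no WT library reached any mutant library, and the high WT value was that of the library labelled WT rapamycin replicate 3. In this comparison pth1a rose by 3.95 ± 0.57 on the log2 scale (SE, n = 3 each), or 15.4-fold (edgeR adjusted p = 0.000486, adjusted over all 22841 genes tested). Without the library labelled WT rapamycin replicate 3 the log2 fold change was 5.26 ± 0.45 (edgeR adjusted p = 9.52e-06), and over 18 alternative analyses the adjusted p ranged from 1.83e-11 to 0.0106.

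In the same libraries pth1b had 96.6, 117 and 195 normalized counts in mutant embryos, against 14.6, 9.45 and 39.8 in WT embryos. The groups did not overlap, and the highest WT value again came from the library labelled WT rapamycin replicate 3. The gene rose by 2.66 ± 0.46 on the log2 scale (SE, n = 3 each), or 6.33-fold (edgeR adjusted p = 0.00178). Without that library the log2 fold change was 3.45 ± 0.43 (edgeR adjusted p = 0.000160, within a range of 5.61e-07 to 0.0247 over 18 alternatives). In that library pth1a stood at 14.9% and pth1b at 29.9% of the mutant vehicle mean. In WT rapamycin replicates 1 and 2 pth1a stood at 3.04% and 2.19%, and pth1b at 11.0% and 7.12%. In WT vehicle embryos, whose difference from mutants was known when the list was drawn up, pth1a stood at 1.28% to 4.72% and pth1b at 5.50% to 9.23%.

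**Figure D1:**
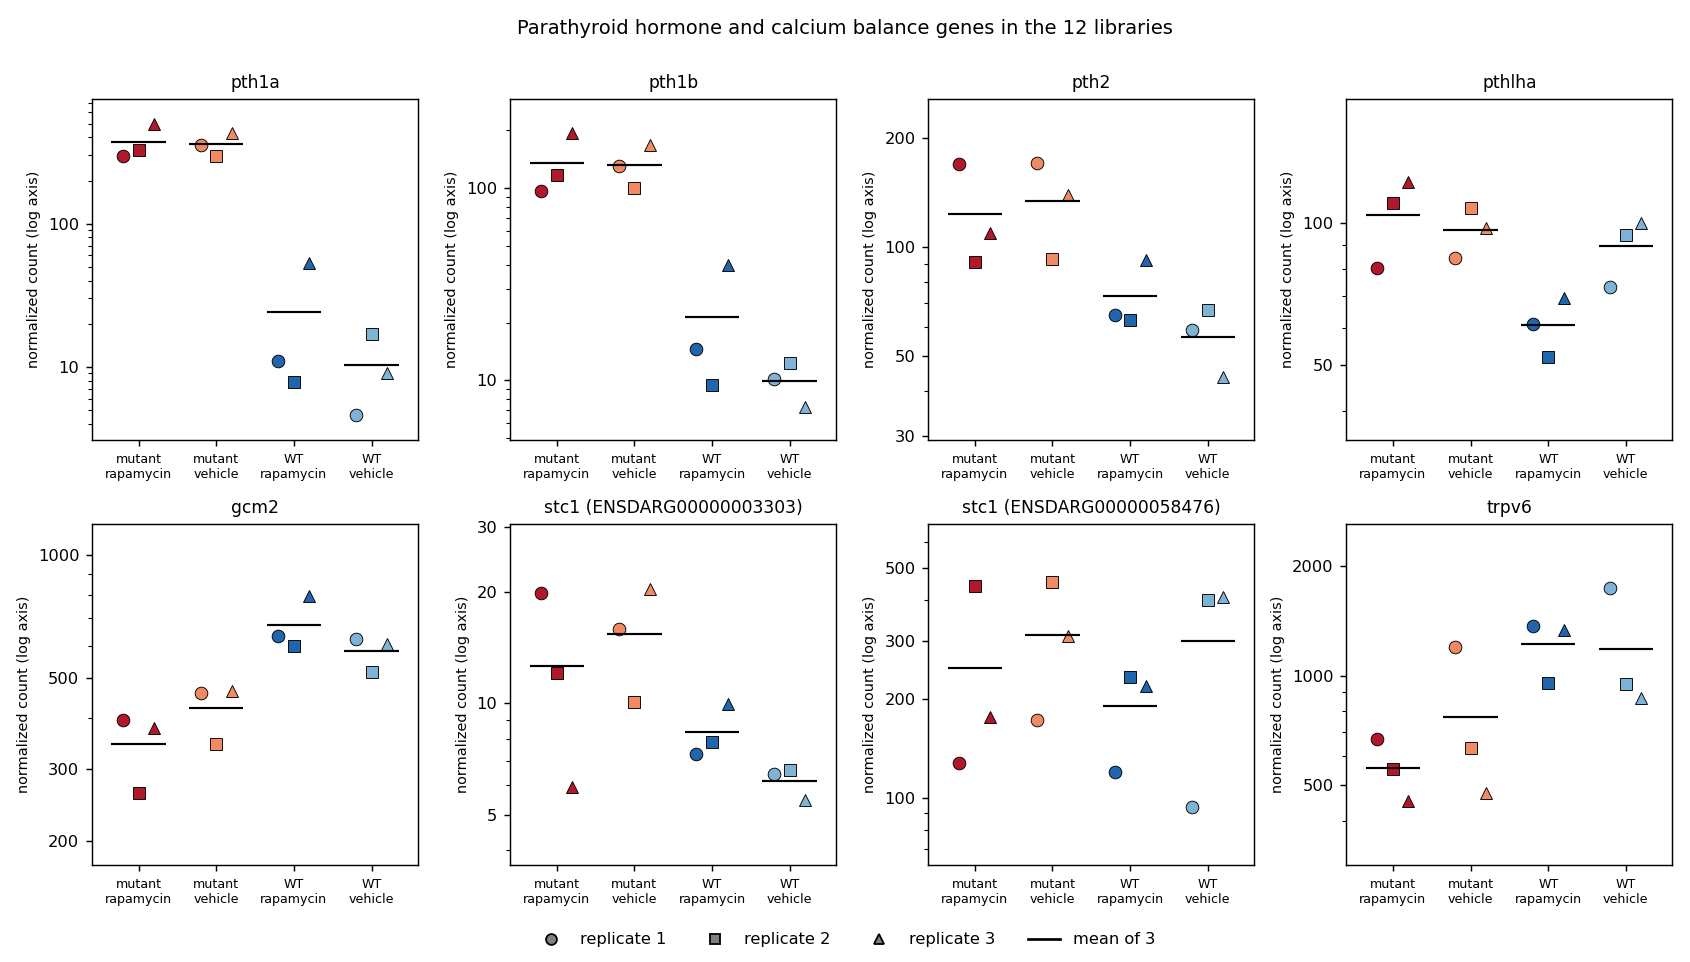
Normalized counts (log axis, a scale of its own in each panel) of the 8 genes with enough reads to test, in mutant rapamycin, mutant vehicle, WT rapamycin and WT vehicle embryos. Each symbol is 1 library, its shape gives the replicate number, and the line is the mean of 3. For pth1a and pth1b all 6 mutant libraries lie above all 6 WT libraries, and the triangle at 53.4 for pth1a is the library labelled WT rapamycin replicate 3.

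The other ligands of the family moved less. The gene pth2 (ENSDARG00000022951) encodes tuberoinfundibular peptide, a ligand made by a small group of brain neurons. It had 171, 92.5 and 140 normalized counts in mutant vehicle embryos, against 58.8, 67.0 and 43.8 in WT vehicle embryos. The groups were apart, although mutant replicate 2 lay nearer to the WT libraries than to the other mutants. The log2 fold change was 1.25 ± 0.28 (SE, n = 3 each), or 2.37-fold, and 1.39 ± 0.32 without WT vehicle replicate 2. In rapamycin pth2 had 169.5, 90.9 and 109.6 normalized counts in mutant embryos, against 64.7, 63.0 and 92.0 in WT embryos. Here the lowest mutant and the highest WT library crossed, and the log2 fold change of 0.75 ± 0.31 did not pass (edgeR adjusted p = 0.127, 95% interval 0.07 to 1.43). Without the library labelled WT rapamycin replicate 3 it was 0.96 ± 0.33 (edgeR adjusted p = 0.0502, the lowest of the 19 alternatives, of which the highest was 0.433).

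The genes pthlha and pthlhb encode parathyroid hormone-related peptides, which in mice slow the maturation of growth plate cartilage. In vehicle pthlha (ENSDARG00000031737) had 84.5, 108 and 97.9 normalized counts in mutant embryos, against 73.5, 94.3 and 100.3 in WT embryos. The groups overlapped and the log2 fold change was 0.12 ± 0.21, with a 95% interval of −0.36 to 0.59. In rapamycin the counts were 80.5, 110.4 and 122 in mutant embryos, against 61.1, 52.0 and 69.6 in WT embryos. Every mutant library was above every WT library, and pthlha was higher by 0.77 ± 0.24 on the log2 scale (edgeR adjusted p = 0.0426), short of a 2-fold change. That adjusted p was 0.0640 without WT vehicle replicate 2 and ranged from 0.0220 to 0.178 over 19 alternatives. The other paralog, pthlhb (ENSDARG00000071070), had 1 raw count in a single mutant vehicle library, against 4 in a single WT vehicle library, and 1 in a single mutant rapamycin library, against 0 in all 3 WT rapamycin libraries. It was near or under the 3 counts that a count of 0 allows for and did not pass the filter on low counts, so no fold is given.

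The transcription factor gcm2 specifies the parathyroid gland in mice, and in zebrafish it is known from the pharyngeal region and from acid-secreting ionocytes. It was lower in mutants, by a margin that was small but held in every library. In vehicle gcm2 (ENSDARG00000045413) had 460, 345 and 465 normalized counts in mutant embryos, against 623, 518 and 605 in WT embryos. The groups did not overlap, and the log2 fold change was −0.46 ± 0.15 (SE, n = 3 each), and −0.53 ± 0.16 without WT vehicle replicate 2. In rapamycin it had 395, 262 and 378 in mutant embryos, against 634, 598 and 795 in WT embryos. The groups lay further apart, and gcm2 fell by 0.97 ± 0.19 on the log2 scale (edgeR adjusted p = 0.00407), just short of a 2-fold change. Without the library labelled WT rapamycin replicate 3, which had the highest count, the log2 fold change was −0.82 ± 0.18 (edgeR adjusted p = 0.00639, within a range of 3.38e-05 to 0.0411 over 19 alternatives), and in 5 of those alternatives it exceeded 2-fold, 4 of them without mutant replicate 1 or 3 or WT replicate 1 or 2.

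The calcium sensor itself could not be compared. The calcium-sensing receptor casr (ENSDARG00000013649) had 3, 3 and 3 raw counts in mutant vehicle embryos, against 7, 2 and 6 in WT vehicle embryos, and 2, 5 and 7 in mutant rapamycin embryos, against 3, 2 and 5 in WT rapamycin embryos. These values overlapped and were too low to pass the filter on low counts, so a difference was not detectable at this depth.

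The channel trpv6 (ENSDARG00000014496), which carries calcium into ionocytes, was lower in the mutant of every pair of libraries with the same replicate number. In vehicle it had 1196, 634 and 475 normalized counts in mutant embryos, against 1741, 947 and 869 in WT embryos. The groups overlapped, because mutant replicate 1 was above WT replicates 2 and 3. The ratio of mutant to WT within a replicate number was nevertheless alike, at 0.687, 0.670 and 0.546. The log2 fold change was −0.63 ± 0.36 (SE, n = 3 each), and −0.66 ± 0.10 with the replicate number in the model as a block. Without WT vehicle replicate 2 it was −0.76 ± 0.39. With 1 library left out it lay between −1.10, without mutant replicate 1, and −0.24, without WT replicate 1. In rapamycin trpv6 had 670, 555 and 452 in mutant embryos, against 1366, 956 and 1332 in WT embryos. The groups did not overlap, and trpv6 fell by 1.12 ± 0.34 on the log2 scale, or 2.18-fold (edgeR adjusted p = 0.0395). This call was lost without any one of 6 libraries, among them WT vehicle replicate 2 (adjusted p = 0.0502) and the library labelled WT rapamycin replicate 3 (log2 fold change −1.05 ± 0.37, adjusted p = 0.0540). Over 19 alternatives the adjusted p ranged from 0.00344, with the replicate block, to 0.133, and the gene was lower in mutants in each of them.

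The 2 genes named stc1 encode stanniocalcins, and neither was called in rapamycin. The gene ENSDARG00000003303 had 15, 11 and 21 raw counts in mutant vehicle embryos, against 7, 7 and 6 in WT vehicle embryos. These did not overlap, but the reads were few, and the log2 fold change of 1.30 ± 0.45 lay between 1.05 and 1.54 with 1 library left out. In rapamycin it had 21, 13 and 6 raw counts in mutant embryos, against 8, 5 and 8 in WT embryos, which overlapped (log2 fold change 0.59 ± 0.50, edgeR adjusted p = 0.477). The gene ENSDARG00000058476 had 172, 453 and 310.1 normalized counts in mutant vehicle embryos, against 93.7, 399 and 408 in WT vehicle embryos. It had 128, 441 and 176 in mutant rapamycin embryos, against 120, 233 and 219 in WT rapamycin embryos. Both pairs of groups overlapped, with log2 fold changes of 0.06 ± 0.50 in vehicle and 0.39 ± 0.58 in rapamycin (edgeR adjusted p = 0.713, 95% interval −0.86 to 1.64).

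The levels of trpv6 and of stc1 (ENSDARG00000058476) also followed the replicate number, which is given to all groups alike. In each of the 4 groups replicate 1 had the most trpv6 and the least stc1 of its group. For trpv6 in WT rapamycin embryos the margin was small, at 1366 against 1332 in replicate 3. How many of all genes have such an order was not counted. For stc1 the replicate block cut the standard error in vehicle to 0.21, against 0.50 without it, and for trpv6 to 0.10, against 0.36 without it. In rapamycin these standard errors were 0.30, against 0.58, for stc1 and 0.22, against 0.34, for trpv6. The embryos came from 3 clutches, and whether the number stands for a clutch is not stated.

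**Figure D2:**
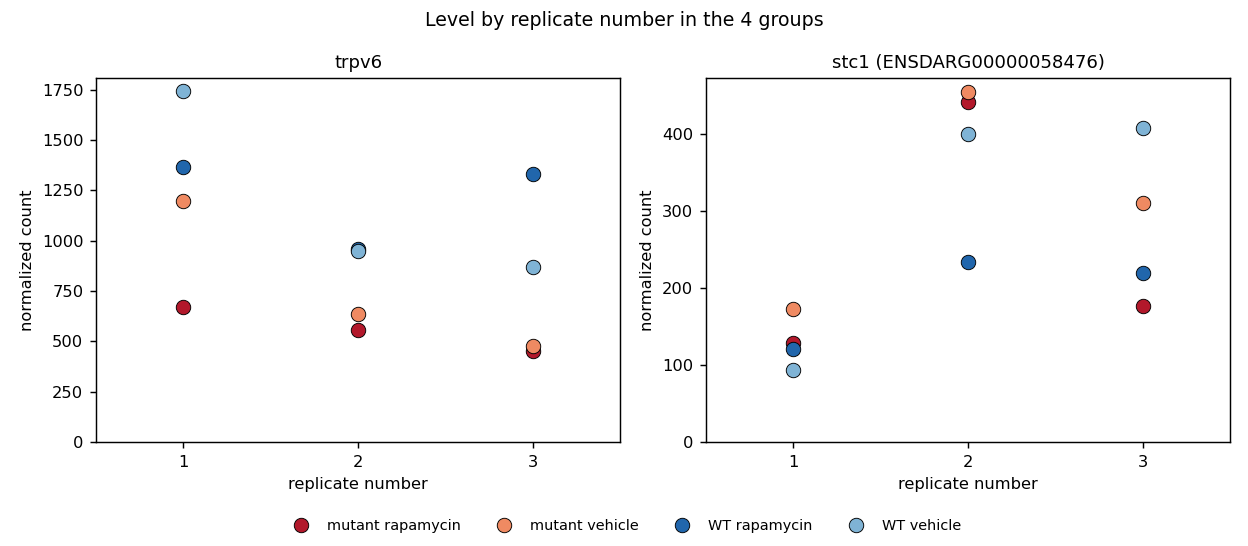
Normalized counts (linear axis) of trpv6 and of stc1 (ENSDARG00000058476) against replicate number, with 1 point for each library and a colour for each of the 4 groups. At replicate 1 trpv6 is at its highest in every group, with 1741 in WT vehicle, and stc1 at its lowest, with 93.7 in WT vehicle. Replicate numbers have no order.

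Of the 10 genes, 8 had enough reads to be tested in each comparison. In vehicle 3 of them, pth1a, pth1b and pth2, met an adjusted p under 0.05 with a change of at least 2-fold, all 3 higher in mutants, where 7.95% of the 22335 genes tested met it and 4.05% did so as higher. Because the list was chosen with this comparison known, nothing is read from that count. The groups of 5 of the 8 did not overlap in vehicle, which was true of 43.8% of all genes. In rapamycin 3 met it, with pth1a and pth1b higher and trpv6 lower, where 7.64% of 22841 genes did, 3.84% as higher and 3.8% as lower. Without the library labelled WT rapamycin replicate 3, WT vehicle replicate 2 or mutant rapamycin replicate 2, there were 2, since trpv6 no longer passed. With no fold minimum, 4 passed in vehicle and 5 in rapamycin, where 28.4% and 17.4% of all genes did. In rapamycin the groups of 5 members did not overlap, which was true of 29.1% of all genes.

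**Figure D3:**
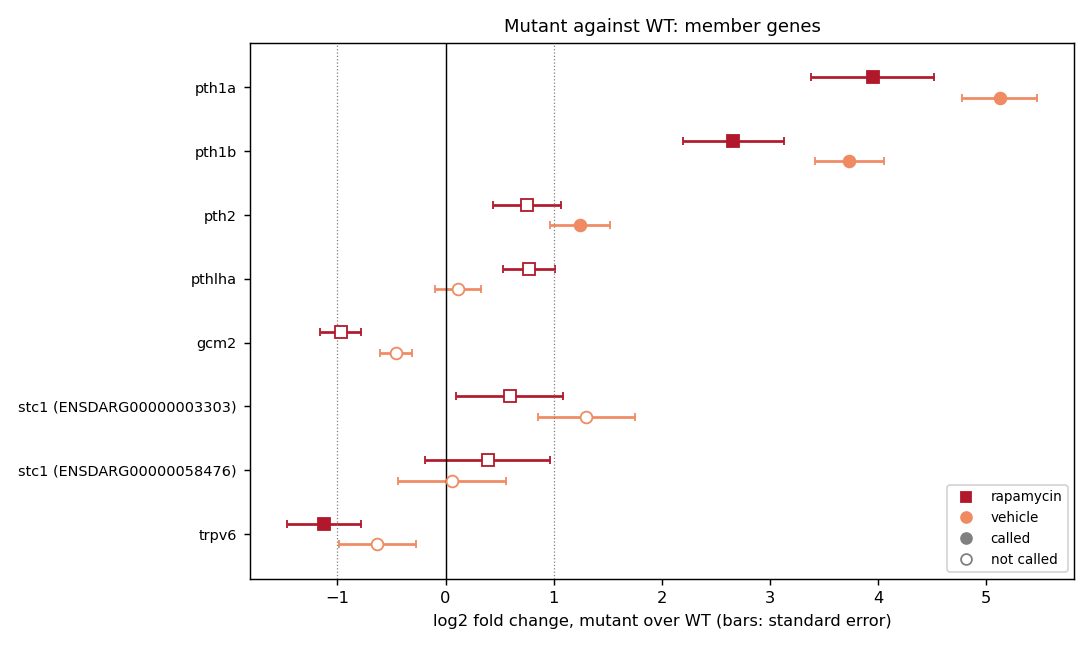
Log2 fold change of mutant over WT for the 8 genes tested, in rapamycin (squares) and in vehicle (circles), with bars for the standard error. Filled symbols mark genes that met an adjusted p under 0.05 and at least 2-fold, which for vehicle is a description only, and dotted lines mark a 2-fold change. Only pth1a and pth1b lie beyond 2 on the log2 scale, at 3.95 and 2.66 in rapamycin and at 5.12 and 3.73 in vehicle.

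Whether rapamycin itself moved these genes was tested in each genotype. These comparisons share the vehicle libraries with the one used for the list. In mutant embryos pth1a averaged 374 ± 106 normalized counts with rapamycin and 359 ± 66.0 with vehicle (SD, n = 3 each), a log2 fold change of 0.06 ± 0.48 with a 95% interval of −0.98 to 1.09. The paralog pth1b averaged 136 ± 51.7 with rapamycin and 133 ± 33.9 with vehicle in mutant embryos, a log2 fold change of 0.03 ± 0.41 with a 95% interval of −0.86 to 0.93. Both groups of libraries overlapped for both genes.

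None of the 8 members passed in mutant embryos, in WT embryos or in the interaction, which asks whether the mutant-to-WT difference is the same with and without rapamycin (edgeR, adjusted p under 0.05). No gene of the table passed in any of these 3 comparisons either (0%). At an unadjusted p under 0.05 there were 150 genes in mutant embryos, 1394 in WT embryos and 364 in the interaction, of 22841 tested. Where nothing differs, a share of about 0.05 is expected at this threshold. The counts in mutant embryos and in the interaction were below that share, and the count in WT embryos was slightly above it. DESeq2 called 0, 2 and 2 genes in the same 3 comparisons, none of them a member. At an unadjusted p under 0.05 the members numbered 0 in mutant embryos, 1 in WT embryos (pthlha) and 0 in the interaction.

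In WT embryos pth1a had 10.9, 7.87 and 53.4 normalized counts with rapamycin, against 4.59, 17.0 and 9.12 with vehicle. The groups overlapped, and the log2 fold change was 1.23 ± 0.65 (SE; edgeR adjusted p = 0.790). Without the library labelled WT rapamycin replicate 3 it was −0.07 ± 0.55 (adjusted p = 0.982). The interaction for pth1a was −1.17 ± 0.80 with that library and 0.13 ± 0.61 without it, and for pth1b −1.07 ± 0.66 with it and −0.28 ± 0.56 without it. The gene pthlha had 61.1, 52.0 and 69.6 normalized counts in WT embryos with rapamycin, against 73.5, 94.3 and 100.3 with vehicle. Those groups did not overlap, as for 10.7% of all genes, and the log2 fold change of −0.55 ± 0.24 did not pass (edgeR adjusted p = 0.790).

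For gcm2 the rapamycin library was below the vehicle library of the same number in all 3 mutant pairs and above it in all 3 WT pairs. The log2 fold change for rapamycin was −0.30 ± 0.19 in mutant embryos and 0.22 ± 0.19 in WT embryos, and the interaction of −0.51 ± 0.27 did not pass (edgeR adjusted p = 0.9999). For trpv6 the log2 fold change was −0.46 ± 0.34 in mutant embryos and 0.04 ± 0.34 in WT embryos, with an interaction of −0.50 ± 0.48 (edgeR adjusted p = 0.9999).

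The patterns most like those of the parathyroid hormone genes were sought among the 17435 genes that averaged 100 counts or more per library, by Pearson's r of log2 CPM over the 12 libraries. For pth1a these were the small heat shock gene hspb11 (r = 0.994), the urotensin-related peptide urp2 (0.993), the tRNA-modifying enzyme DUS2 (0.993), the cytokine il11a (0.991) and the protease cathepsin K, ctsk (0.991). For pth1b they were baxb (0.993), hspb11 (0.992), urp2 (0.991), the growth factor btc (0.989) and RBM28 (0.988), and the r between pth1a and pth1b was 0.988. The 12 points share 2 genotypes, so that any gene with a wide difference between mutant and WT has a high r.

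A wider list of 84 genes for calcium, vitamin D, phosphate, ionocytes, pharyngeal pouches and bone was then examined. It too was drawn up with earlier results of these data known, so its counts and p-values describe the genes and are not independent evidence. In vehicle 12 of the 83 tested were called, 4 higher and 8 lower (7.95% of all genes were called, 4.05% as higher and 3.9% as lower), with a median log2 fold change of −0.26 against −0.00 over all genes. In rapamycin 11 of 84 were called, 6 higher and 5 lower (7.64% of all genes), with a median of −0.22 against −0.03 over all genes. Without WT vehicle replicate 2 these counts were 12 and 11, and without the library labelled WT rapamycin replicate 3 the count in rapamycin was 13. The 12 called in vehicle without WT vehicle replicate 2 were not all the same genes. The calls of six1a and CYP27B1 were lost, and CALB2 (−1.02) and slc12a10.2 (−1.01) were called lower. None was called for rapamycin against vehicle or for the interaction (edgeR), with 2 at an unadjusted p under 0.05 in mutant embryos, 7 in WT embryos and 2 in the interaction. Over all 22841 genes tested there were 150, 1394 and 364.

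Of the called genes of this list, the one with the widest difference in both treatments was a vitamin D enzyme. The gene cyp24a1, which encodes the hydroxylase that inactivates vitamin D, had 4012, 3816 and 5092 normalized counts in mutant vehicle embryos, against 373, 532 and 417 in WT vehicle embryos. With rapamycin it had 4535, 4512 and 3786 in mutant embryos, against 498, 246 and 687 in WT embryos. All 6 mutant libraries were above all 6 WT libraries. It rose by 3.29 ± 0.16 on the log2 scale in vehicle (edgeR adjusted p = 8.07e-06) and by 3.16 ± 0.30 in rapamycin (edgeR adjusted p = 1.86e-05). Without the library labelled WT rapamycin replicate 3 the rapamycin value was 3.51 ± 0.28.

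The gene cyp2r1 encodes the enzyme for the first hydroxylation of vitamin D. It had 53.8, 46.7 and 59.1 normalized counts in mutant vehicle embryos, against 143, 134 and 181 in WT vehicle embryos, and 52.1, 28.8 and 71.1 in mutant rapamycin embryos, against 140, 209 and 312 in WT rapamycin embryos. The groups were apart in both treatments, and cyp2r1 fell by 1.52 ± 0.21 in vehicle (edgeR adjusted p = 0.000944) and by 2.12 ± 0.35 in rapamycin (edgeR adjusted p = 0.00125) on the log2 scale. Without the library labelled WT rapamycin replicate 3, which had the highest count, the rapamycin value was −1.76 ± 0.32. The activating enzyme CYP27B1 was called lower in vehicle (log2 fold change −1.13 ± 0.36, edgeR adjusted p = 0.0474), a call lost in 6 of 13 alternatives, 5 of them leaving out 1 library other than mutant replicate 1, where the adjusted p reached 0.160, and was not called in rapamycin (−1.02 ± 0.47, edgeR adjusted p = 0.173). Of the 8 vitamin D genes, 3 were called in vehicle and 2 in rapamycin, where 7.95% and 7.64% of all genes were. The receptors named VDR and the other 3 were not called in either treatment.

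The receptors and other ligands of the family were listed together with the calcitonin receptor. Of these 6 genes 0 were called in vehicle (edgeR, 0 at an unadjusted p under 0.05). In rapamycin 1 was called, where 7.95% of all genes were called in vehicle and 7.64% in rapamycin. One of the 2 genes named PTH2R (ENSDARG00000006678) was called in rapamycin. It had 61.6, 69.6 and 29.6 normalized counts in mutant rapamycin embryos, against 11.8, 4.72 and 9.94 in WT rapamycin embryos. The groups did not overlap, and the log2 fold change was 2.54 ± 0.45 (edgeR adjusted p = 0.00202), against 0.53 ± 0.34 in vehicle (edgeR adjusted p = 0.294). The interaction for this gene was 1.998 ± 0.60 and did not pass (edgeR adjusted p = 0.9999). The receptor PTH1R, the hypothalamic ligand pth4 and the calcitonin receptor CALCR were not called in either treatment, although pth4 was in vehicle without mutant replicate 2 (−1.29).

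In the list of calcium uptake and transport 2 of 15 genes were called in vehicle and 2 in rapamycin, where 7.95% and 7.64% of all genes were. With no fold minimum 12 of the 15 passed in vehicle, 8 of them as lower, where 28.4% of all genes passed and 13.6% did so as lower. In rapamycin 6 passed, 4 of them as lower, where 17.4% of all genes passed and 8.28% did so as lower. The calcium pump atp2b1b fell by 1.94 ± 0.18 on the log2 scale in vehicle (edgeR adjusted p = 0.000103) and by 1.95 ± 0.21 in rapamycin (edgeR adjusted p = 6.45e-05). The protease pappaa, which frees insulin-like growth factor from its binding proteins, rose by 1.31 ± 0.28 in vehicle (edgeR adjusted p = 0.00773). In rapamycin pappaa was not called, and its log2 fold change lay between 0.38 and 1.04 over 19 alternatives. The binding protein IGFBP5 (ENSDARG00000025348) had 1136, 1011 and 1118 normalized counts in mutant rapamycin embryos, against 542, 537 and 270 in WT rapamycin embryos. The groups were apart, with the library labelled WT rapamycin replicate 3 the lowest, and IGFBP5 rose by 1.27 ± 0.21 (edgeR adjusted p = 0.00125), or by 1.03 ± 0.10 without that library (edgeR adjusted p = 2.37e-05). In vehicle it was higher by 0.93 ± 0.09 (edgeR adjusted p = 0.000188), short of 2-fold. Of the stanniocalcin list stc2b was called in both treatments, at −1.66 ± 0.26 in vehicle and −1.54 ± 0.42 in rapamycin (edgeR adjusted p = 0.00198 and 0.0245). The call in rapamycin was lost without mutant replicate 2 or 3 or WT replicate 1 or 2, with an adjusted p of up to 0.0961, or when only the 6 rapamycin libraries were fitted (adjusted p = 0.104). The gene STC2 (ENSDARG00000056680) of the same list went the other way. It averaged 872 normalized counts in mutant and 489 in WT vehicle embryos, and 817 and 488 with rapamycin. Both pairs of groups overlapped and STC2 was not called. Without mutant replicate 3 of the treatment it was called higher, in vehicle and in rapamycin.

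**Figure D4:**
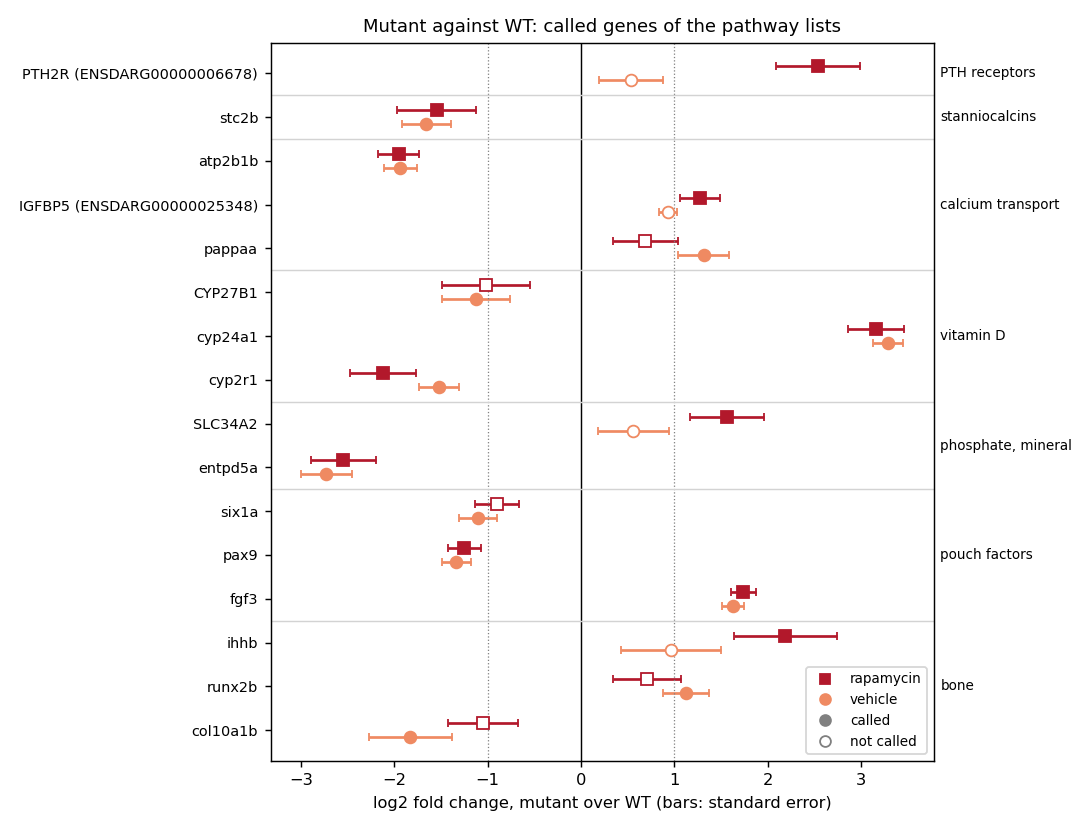
Log2 fold change of mutant over WT, in rapamycin (squares) and in vehicle (circles), for the genes of the wider list that were called in at least 1 of the treatments, grouped by list. Bars are standard errors, filled symbols are called genes and dotted lines mark a 2-fold change. The gene cyp24a1 lies furthest to the right (3.16 and 3.29) and entpd5a furthest to the left (−2.54 and −2.73).

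Of the phosphate and mineral genes entpd5a, an ectonucleotidase that zebrafish need to mineralise bone, was called in both treatments. It had 35.9, 60.5 and 31.0 normalized counts in mutant vehicle embryos, against 228, 289 and 332 in WT vehicle embryos, and fell by 2.73 ± 0.27 on the log2 scale (edgeR adjusted p = 0.000170). In rapamycin it fell by 2.54 ± 0.34 (edgeR adjusted p = 0.000300). Both of 2 notochord markers were called lower too, col8a1a at −1.57 in vehicle and −1.18 in rapamycin and epyc at −1.33 and −1.26, and neither was at 0. Their summed level was 2686 to 4045 in mutant vehicle embryos, against 6631 to 10377 in WT vehicle embryos, and 3234 to 3997 in mutant rapamycin embryos, against 7119 to 9456 in WT rapamycin embryos. The 3 osteoblast markers did not move together. In vehicle runx2b was called higher (1.12), while SP7 was at 0.36 and COL10A1 at −0.75 (edgeR adjusted p = 0.215 and 0.00916). In rapamycin runx2b was at 0.71, SP7 at 0.69 and COL10A1 at −0.23, and none was called. The part of the notochord and of osteoblasts in these differences was not tested. The phosphate transporter SLC34A2 rose in rapamycin by 1.56 ± 0.40 (edgeR adjusted p = 0.0173), a call lost in 3 of 18 alternatives, among them those without mutant replicate 2 or WT replicate 1 (adjusted p up to 0.0769), and was not called in vehicle.

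Of the 13 pharyngeal pouch and parathyroid factors, the ligand fgf3 rose by 1.63 ± 0.12 in vehicle and by 1.74 ± 0.13 in rapamycin (edgeR adjusted p = 3.67e-05 and 4.71e-06). The pouch factor pax9 was at −1.33 ± 0.16 in vehicle and −1.25 ± 0.17 in rapamycin (edgeR adjusted p = 0.000403 and 0.000374). The factor six1a was called in vehicle alone (−1.10 ± 0.21, edgeR adjusted p = 0.00445), and it came under 2-fold when mutant vehicle replicate 1 (−0.93) or WT vehicle replicate 2 (−0.94) was left out. Of 10 bone genes, runx2b (1.12 ± 0.24) and col10a1b (−1.83 ± 0.44) were called in vehicle and ihhb (2.19 ± 0.56) in rapamycin (edgeR adjusted p = 0.00913, 0.0145 and 0.0172). The pouch list had 3 genes called in vehicle and 2 in rapamycin, and the bone list 2 and 1. Of all genes 7.95% and 7.64% were called. The call of runx2b was lost without mutant vehicle replicate 1 (0.98) and when all 12 libraries were fitted together (adjusted p = 0.0538), that of col10a1b without mutant vehicle replicate 1 or 3 or WT vehicle replicate 3 (adjusted p up to 0.0760), and that of ihhb without mutant rapamycin replicate 2 or 3 or WT rapamycin replicate 1 (up to 0.0609).

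Both trpv6 and gcm2 are known from ionocytes, so the ionocyte genes were placed beside them. None of the 15 genes of ionocyte factors and acid-secreting ionocytes was called in either treatment. Some alternatives did call RHCG (ENSDARG00000100265), an ammonia transporter, and the cotransporter slc12a10.2 as lower. In vehicle RHCG was called with the replicate block (−1.08, edgeR adjusted p = 0.0319). It was also called there with at least 10 counts in every library (−1.07) and without mutant replicate 1 (−1.44). The gene slc12a10.2 was called in vehicle without mutant replicate 1 (−1.04) or, in its place, WT replicate 2 (−1.01). In rapamycin slc12a10.2 was called with upper-quartile size factors (−1.03) and without mutant replicate 3 (−1.26). It was also called there without the library labelled WT rapamycin replicate 3 (−1.16). In this list 7 passed an adjusted p under 0.05 as lower in vehicle and 4 in rapamycin, where 13.6% and 8.28% of all genes did. In either direction 9 and 5 were at an unadjusted p under 0.05 (edgeR). Over all genes 8781 of 22335 in vehicle and 6813 of 22841 in rapamycin were. The factor foxi3b was lower by 0.80 ± 0.12 in vehicle and 0.81 ± 0.15 in rapamycin on the log2 scale. Its paralog foxi3a moved less, at −0.21 in vehicle and −0.17 in rapamycin (edgeR adjusted p = 0.248 and 0.504). The summed level of 7 ionocyte markers was 15477 to 16356 in mutant vehicle embryos, against 20333 to 21550 in WT vehicle embryos, and 13983 to 16031 in mutant rapamycin embryos, against 16337 to 21423 in WT rapamycin embryos. Most of this sum was the genes ATP6V1A (ENSDARG00000034534) and ATP6V1A (ENSDARG00000076318). They averaged 7703 and 4398 in mutant vehicle embryos, against 10955 and 5127 in WT vehicle embryos. Of the 7, IGFBP5 (ENSDARG00000025348) alone was called, as higher in rapamycin, and none was at 0. The markers chosen were igfbp5a and atp6v1aa, and the gene names do not tell which IGFBP5 and which ATP6V1A these are. The called IGFBP5 can therefore be the paralog that was not chosen as a marker. Their part in the differences of trpv6 and gcm2 was not tested.

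The zebrafish pth1 genes are known from the lateral line and the neural tube, so markers of these were examined too. The summed level of 5 neuromast genes was 4445 to 5335 in mutant vehicle embryos, against 5210 to 5484 in WT vehicle embryos, and 4505 to 5147 in mutant rapamycin embryos, against 3473 to 5034 in WT rapamycin embryos. That of 4 neuronal genes was 13304 to 17000 in mutant vehicle embryos, against 19799 to 20550 in WT vehicle embryos, and 12695 to 15812 in mutant rapamycin embryos, against 13110 to 20087 in WT rapamycin embryos. None of these 9 genes was called or at 0. The median neuromast sum was 5203 in mutant and 5473 in WT embryos in vehicle, and 4987 in mutant and 4939 in WT embryos in rapamycin, while the median neuronal sum was 15958 in mutant and 20191 in WT embryos in vehicle. Most of the neuromast sum was MYO6 (ENSDARG00000044016), which averaged 3503 in mutant and 3195 in WT vehicle embryos. The markers chosen were myo6b and otofb, and the gene names do not tell which MYO6 and which OTOF these are. The sum can therefore hold genes that were not chosen as neuromast markers. The log2 fold changes in vehicle were −0.81 for OTOF (ENSDARG00000020581), −0.42 for OTOF (ENSDARG00000030832) and −0.54 for ATOH1 (edgeR adjusted p = 0.00508, 0.0248 and 0.0347). Of the neuronal genes, ELAVL4 was at −0.53 and SNAP25 (ENSDARG00000058117) at −0.69 in vehicle (edgeR adjusted p = 0.00436 and 0.00680). ELAVL3 was at −0.24 and SNAP25 (ENSDARG00000020609) at −0.32 (edgeR adjusted p = 0.223 and 0.0525). The part of these cells in the differences of pth1a and pth1b was not tested. The summed level of 5 pharyngeal pouch genes, to be set beside gcm2, was 3088 to 3525 in mutant vehicle embryos, against 4177 to 4717 in WT vehicle embryos, and 3352 to 3838 in mutant rapamycin embryos, against 4321 to 4814 in WT rapamycin embryos. The 5 did not move together. TBX1, NKX2-3 and pax9 were lower in mutants in vehicle (−0.68, −0.39 and −1.33), whereas PAX1 (ENSDARG00000008203) and PAX1 (ENSDARG00000073814) were higher, by 0.66 and 0.53 in vehicle (edgeR adjusted p = 0.00347 and 0.0187) and by 0.96 and 0.61 in rapamycin (edgeR adjusted p = 0.00170 and 0.0233). Their part in the difference of gcm2 was not tested.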

How the data were processed

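The authors prepared poly-A selected, stranded libraries from whole embryos. The methods name STAR with GRCz10 for mapping, while the submitters' processing notes list Salmon. The authors deposited 1 table of estimated counts per Ensembl gene, given as whole numbers and not scaled, so how reads shared by gene copies were divided is not known. All 12 count columns were assigned to samples by name.

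Differences were tested with the quasi-likelihood method of edgeR 4.0.16 (R 4.3.3) after TMM scaling and a filterByExpr minimum of 10 counts, and p-values were adjusted by Benjamini-Hochberg over every gene tested. Mutant and WT were compared in vehicle on 6 libraries. The same comparison in rapamycin, rapamycin against vehicle in each genotype, and the interaction came from 1 model of 12 libraries. A gene counted as called when its adjusted p was under 0.05 and, between mutant and WT, it differed at least 2-fold. Each standard error was derived from the F statistic. The normalized count of a library is its count scaled to the mean effective library size of 74094749. Precision is given by the spread of 3 replicates, and depth limits the genes with few counts. The procedure was tested on simulated data.

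Gene names came from the study's list of changed genes (1743 genes, names only) and from Ensembl names (21193), and 2966 genes had none. The 9 members and the 8 gene lists were chosen with earlier results of these data known. Named are the members, apc, the called genes of each list (at most 4 per list and comparison), and the 5 genes most like pth1a and pth1b. Marker genes and some genes of the lists that were not called are named too, outside this rule. The names calca and cyp27a1.4 matched no row. Where the gene names lacked the paralog letter, a chosen list or marker name was matched to every gene of that name. Such a gene can therefore be the other paralog. No sequence or promoter motif was analysed here. Columns of the authors' own comparisons were not used.

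Replicate numbers run from 1 to 3 in each group. After group means were removed, 18 same-numbered library pairs had correlations over genes of at least 0.139 (mean 0.282), and 36 differently numbered pairs at most −0.00266 (mean −0.140). The deviations within a group cancel, so the negative mean follows from the positive one and is no separate evidence. On the same-numbered pairs, the numbers were taken to pair the libraries. The main tests nevertheless hold no term for the replicate number and treat the libraries as unpaired. Their standard errors and p-values do not use the pairing, which enters only as an alternative. As alternatives, each library was left out in turn, the replicate number was added as a block, other samples entered the fit, the low-count filter was dropped or raised to 10 counts in each library, scaling used RLE or the upper quartile, and DESeq2 1.42.0 replaced edgeR.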

Additional observations from a re-analysis of the deposited data

How the results depend on the processing

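Across the alternatives, pth1a and pth1b were called between mutant and WT embryos in rapamycin in each of the 18 fits that could test them. Counts of members in vehicle are a description, since they were chosen on that comparison. The filter of 10 counts in every library removed both for their low WT counts, leaving 1 member called in vehicle (pth2) and 1 in rapamycin (trpv6). DESeq2 called 2 genes for rapamycin in WT embryos and 2 for the interaction, where edgeR called 0. The replicate block changed no call of a member, with 3 called in vehicle and 3 in rapamycin. It called 1860 genes in vehicle and 1839 in rapamycin, against 1775 and 1746 without it, and of the listed genes it added ihhb (1.09) and RHCG (ENSDARG00000100265; −1.08) in vehicle. Upper-quartile size factors shifted the median log2 fold change of all genes to −0.07 in vehicle and −0.10 in rapamycin, against −0.00 and −0.03. They split the called genes into 817 higher and 982 lower in vehicle and 783 and 1006 in rapamycin, against 905 and 870 and 878 and 868 with TMM. With them stc1 (ENSDARG00000058476) was at −0.00031 in vehicle.

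Signs that turned when 1 library was left out belonged to log2 fold changes that were not called. Of these, pth1a for rapamycin in WT embryos (1.23) and in the interaction (−1.17) exceeded 2-fold, and both turned without the library labelled WT rapamycin replicate 3. For mutant against WT these were pthlha in vehicle (−0.0068 to 0.21) and stc1 (ENSDARG00000058476) in vehicle (−0.37 to 0.35) and rapamycin (−0.32 to 0.70). For rapamycin against vehicle in mutant embryos they were pth1a (−0.20 to 0.20), pth1b (−0.31 to 0.24), pth2 (−0.42 to 0.089), pthlha (−0.020 to 0.27), stc1 (ENSDARG00000003303; −0.76 to 0.053), stc1 (ENSDARG00000058476; −1.04 to 0.053) and trpv6 (−0.71 to 0.012). In WT embryos they were pth1a (−0.073 to 1.79) and trpv6 (−0.14 to 0.44), and for the interaction pth1a (−1.73 to 0.13) and stc1 (ENSDARG00000058476; −0.38 to 0.74). Beyond these ranges the cause was not tested. Depth limits casr, pthlhb and the WT levels of pth1a and pth1b, which rest on 5 to 43 and 6 to 32 raw counts a library. It also limits called genes of the wider list. In mutant vehicle embryos col10a1b had 5 to 9 raw counts a library. In WT rapamycin embryos SLC34A2 had 7 to 11 and PTH2R (ENSDARG00000006678) had 3 to 13.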
